A study of Mus musculus with 9 samples.

Results

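The collagen genes of the mouse brain were followed through 3 groups of arrays: sham surgery, focal ischaemia, and focal ischaemia with VEGF-A. The collagen genes were taken as every gene whose symbol is Col, a number, the letter a and a number, with antisense genes left out, after each array probe's RefSeq accession had been paired with a symbol. This rule found 42 genes, with 61 probes, among 20145 genes with a symbol on the array. A gene was tested if 1 of its probes stood well above background throughout at least 1 group of 3 arrays, which held for 39 of the 42 and not for Col6a6, Col17a1 and Col28a1. Of 44 collagen symbols in the RefSeq table, Col6a3 and Col12a1 matched no probe and were not analysed here.

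All 9 arrays held brain RNA of adult male C57/BL6 mice, 1 animal per array and 3 per group, and the part of the brain is not given in the sources used here. Sham mice, aged 50, 52 and 52 days, underwent sham surgery, and the labels state no injection for them. MCAO mice (50, 52 and 53 days) underwent a 90 min occlusion of the middle cerebral artery, a transient model of stroke, and at 3 h of reperfusion were injected with 1 µl of buffered saline into the right lateral ventricle. VEGF mice (50, 50 and 53 days) underwent the same occlusion, and their 1 µl injection held rhVEGF-A165, a recombinant human growth factor of blood vessels, at 10 µg/ml, and every brain was taken 24 h after reperfusion.

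Collagens are secreted or membrane proteins of the extracellular matrix whose chains wind into triple helices. Fibrillar collagens form the tensile fibres of connective tissue, network collagens such as type IV form the sheet of basement membranes, and FACITs (fibril-associated collagens with interrupted triple helices) sit on the surface of fibrils. The brain parenchyma holds little fibrillar collagen, and its collagens lie mainly in the basement membrane of blood vessels, in the meninges and in the choroid plexus, while several transmembrane and fibril-associated members are made by neurons.

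Levels below are log2 processed signal minus the array's own 75th percentile, so 0 is that percentile and 1 unit is a 2-fold difference. They compare a probe with itself across arrays, not genes with each other. Between 73.0% and 81.8% of spots per array were well above background, and the number of arrays limits the precision. The first principal component over all genes, with 57.0% of the variance, put the sham arrays at -104 to -90.0, MCAO array 1 at 130, VEGF array 1 at 141 and the other ischaemic arrays at -8.19 to 15.9. MCAO array 1 and VEGF array 1 thus stood apart from their groups. These were also the dimmest arrays, with 75th percentile signals of 797 and 723 against 1250 to 1770 on the others. They had the smallest shares of spots well above background, 78.7% and 73.0%. The part of signal strength in their values was not tested. Values without this pair of arrays are therefore added. Those fits hold 1 array fewer in each ischaemic group. The pair was picked from these same values, which by itself shrinks the spread. Standard errors and adjusted p without the pair thus tend to be too small. The sham arrays lay on 1 slide and the ischaemic arrays on another, so slide and ischaemia cannot be told apart, and MCAO array 1 was scanned on another day.

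In MCAO against sham, 2 of 39 collagen genes (5.13%) rose at an adjusted p under 0.05 and none fell. The same test called 2.28% of all 30837 genes higher and 0.535% lower. The members that rose were Col5a3, a minor chain of fibrillar type V collagen, and Col20a1, a FACIT. In VEGF against sham, 1 of 39 (2.56%), again Col5a3, rose and none fell, where 2.07% of all genes were called higher and 0.353% lower. In MCAO against sham 12 collagen genes (30.8%) had an unadjusted limma p under 0.05, where 21.4% of all genes did, and in VEGF against sham 9 (23.1%), where 23.5% of all genes did.

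The median difference over the 39 genes was -0.01 for MCAO and -0.00 for VEGF against sham, beside -0.04 and -0.12 over all genes. In each of these comparisons 19 members had a difference above 0 and 20 below, so the collagen genes as a whole had no common direction. In MCAO against sham the groups did not overlap, with MCAO higher, for 10 members (25.6%, against 19.6% of all genes), and with MCAO lower for 8 (20.5%, against 20.7%). In VEGF against sham they did not overlap for 9 members on the higher side (23.1%, against 18.2%) and for 7 on the lower side (17.9%, against 23.9%). Those shares were near the background. The 2 comparisons share the sham arrays.

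**Figure D1:**
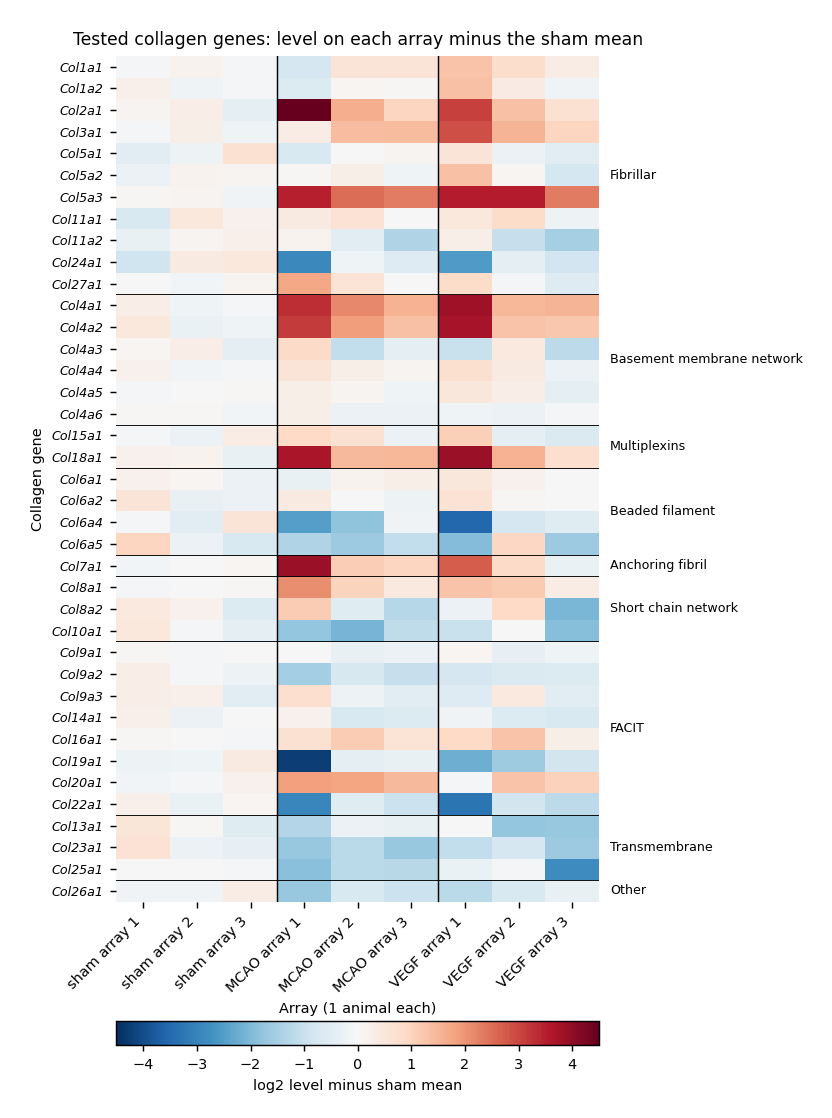
Level of each of the 39 tested collagen genes on each of the 9 arrays minus the mean of the 3 sham arrays, on a log2 colour scale (red above, blue below), in rows grouped by structural class. Col5a3, Col4a1, Col4a2 and Col18a1 are above the sham mean on all 6 ischaemic arrays, most rows of the fibrillar class are pale, and MCAO array 1 and VEGF array 1 hold the strongest colours of many rows.

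Among the 11 fibrillar collagens, 1 rose in each comparison with sham, and the median difference of the class was 0.13 in MCAO and 0.36 in VEGF. Col5a3 stood at -1.54, -1.48 and -1.75 in sham, at 1.91, 0.91 and 0.71 in MCAO and at 1.94, 1.96 and 0.76 in VEGF. Every ischaemic array was far above every sham array, and MCAO and VEGF overlapped. Col5a3 rose by 2.76 ± 0.41 (standard error of the limma fit, n = 3 arrays per group; 6.79-fold, adjusted p = 0.0120) in MCAO and by 3.14 ± 0.41 (8.80-fold, adjusted p = 0.00793) in VEGF.

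The other type V chains did not move with it. Col5a1, which with Col5a2 makes the common form of type V collagen, differed from sham by -0.20 ± 0.40 in MCAO and -0.05 ± 0.40 in VEGF, and Col5a2 by 0.05 ± 0.47 and 0.20 ± 0.47. The 95% intervals of Col5a1 reached 0.72 and 0.86 and those of Col5a2 1.11 and 1.26, all below the lower bounds of Col5a3 of 1.84 and 2.21. Without the pair of arrays that stood apart, Col5a3 was higher by 2.40 ± 0.34 in MCAO (adjusted p = 0.00653) and by 2.94 ± 0.34 in VEGF (adjusted p = 0.00447). With any 1 sham array left out, its adjusted p in MCAO against sham was 0.0543 to 0.0715, and in VEGF against sham it was 0.0542 without sham array 1 and 0.0518 without sham array 3, with differences of 2.68 to 2.82 and of 3.16 and 3.06.

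Col1a1, Col1a2 and Col3a1, the chains of the main fibres of connective tissue and scar, did not pass the test. Col3a1 was at -1.01, -0.68 and -1.12 in sham, at -0.60, 0.45 and 0.51 in MCAO and at 1.98, 0.61 and 0.03 in VEGF. All ischaemic arrays lay above all sham arrays, MCAO array 1 only just, and VEGF array 1 was the highest. The difference from sham was 1.06 ± 0.50 in MCAO (adjusted p = 0.262) and 1.81 ± 0.50 in VEGF (adjusted p = 0.101). Without the pair of arrays it was 1.42 ± 0.22 (adjusted p = 0.00834) and 1.25 ± 0.22 (adjusted p = 0.0143).

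Col1a1 was at 0.49, 0.76 and 0.53 in sham, at -0.17, 1.18 and 1.18 in MCAO and at 1.87, 1.37 and 0.91 in VEGF. MCAO array 1 was the lowest of all 9 and VEGF array 1 the highest, and only the VEGF group was clear of sham. Its difference was 0.13 ± 0.40 in MCAO and 0.79 ± 0.40 in VEGF (adjusted p = 0.257), and without the pair 0.59 ± 0.17 (adjusted p = 0.0564) and 0.55 ± 0.17 (adjusted p = 0.0727). Col1a2, its partner chain, was at 3.11, 2.70 and 2.82 in sham, at 2.27, 2.98 and 2.95 in MCAO and at 4.20, 3.26 and 2.73 in VEGF. Here too MCAO array 1 was lowest and VEGF array 1 highest, and all groups overlapped, with differences from sham of -0.14 ± 0.38 and 0.52 ± 0.38. Without the pair these were 0.09 ± 0.20 and 0.12 ± 0.20, so the sign turned in MCAO.

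Col2a1, the main collagen of cartilage, was at -2.95, -2.79 and -3.51 in sham, at 1.39, -1.44 and -2.11 in MCAO and at 0.01, -1.75 and -2.39 in VEGF. The ischaemic arrays did not overlap sham, and array 1 of each ischaemic group was far above the others. The difference was 2.36 ± 0.91 in MCAO (adjusted p = 0.192) and 1.70 ± 0.91 in VEGF (adjusted p = 0.278), and without the pair 1.30 ± 0.32 (adjusted p = 0.0337) and 1.01 ± 0.32 (adjusted p = 0.0721). Col27a1, a fibrillar collagen of developing cartilage, was at -3.57, -3.70 and -3.46 in sham, at -1.83, -2.97 and -3.56 in MCAO and at -2.74, -3.66 and -4.15 in VEGF, with all groups overlapping. The remaining fibrillar members, Col11a1, Col11a2 and Col24a1, overlapped sham in both comparisons, and Col24a1 was well above background on 2 of 3 arrays in each ischaemic group.

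**Figure D2:**
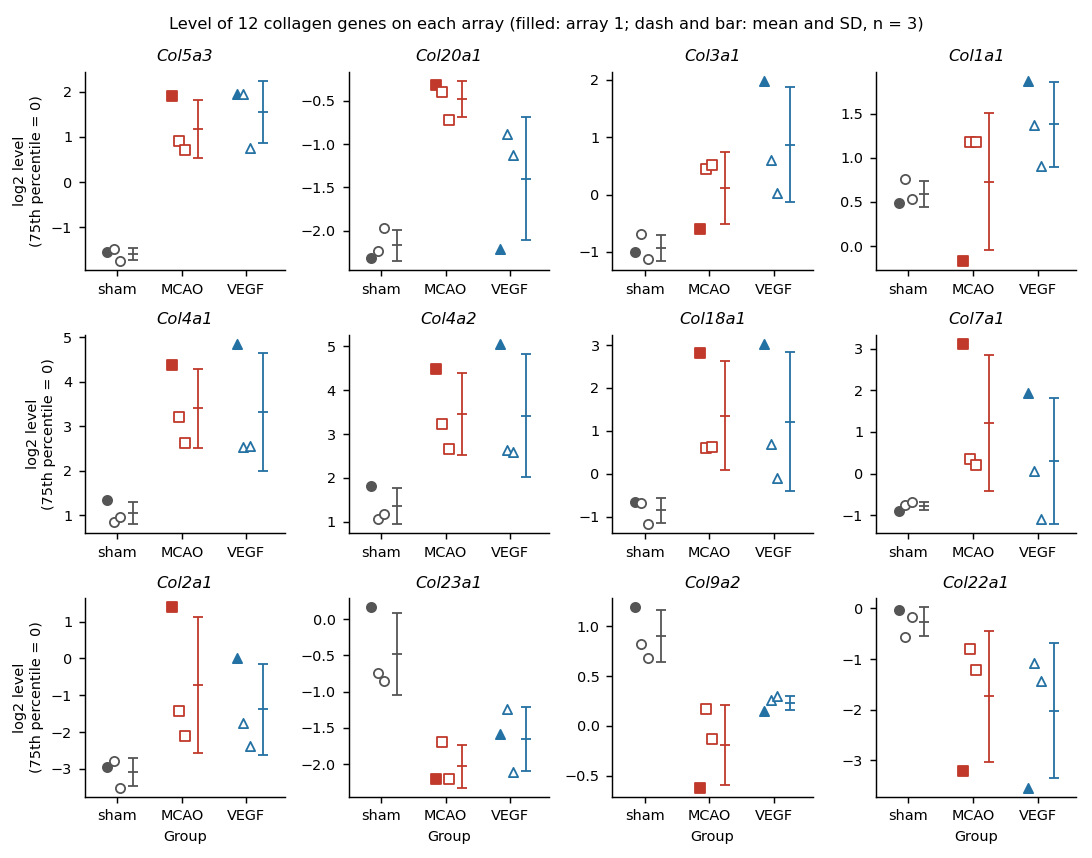
Level of 12 collagen genes on each array, on a log2 scale where 0 is the array's 75th percentile, in sham (circles), MCAO (squares) and VEGF (triangles), with the mean and SD of 3 arrays beside the points and a filled symbol for array 1. Vertical scales differ between panels. Col5a3 is clear of sham in both ischaemic groups, array 1 is the highest of its group for Col4a1, Col4a2, Col18a1, Col7a1 and Col2a1 in MCAO and VEGF, and Col20a1 on VEGF array 1 lies among the sham values.

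Of the 6 type IV chains of basement membranes, Col4a1 and Col4a2, which form the network around blood vessels, had higher values on all ischaemic arrays than on any sham array, but neither passed the test over all 9 arrays. Col4a1 was at 1.34, 0.86 and 0.97 in sham, at 4.38, 3.22 and 2.63 in MCAO and at 4.85, 2.53 and 2.57 in VEGF. Col4a2 was at 1.82, 1.06 and 1.17 in sham, at 4.49, 3.23 and 2.66 in MCAO and at 5.05, 2.64 and 2.58 in VEGF. For both genes array 1 was the highest of its ischaemic group, and sham array 1 was the highest sham array.

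The Col4a1 difference was 2.36 ± 0.66 in MCAO (5.13-fold, adjusted p = 0.100) and 2.26 ± 0.66 in VEGF (4.80-fold, adjusted p = 0.112). For Col4a2 it was 2.11 ± 0.71 (adjusted p = 0.148) and 2.08 ± 0.71 (adjusted p = 0.145). Leaving out MCAO array 1 and VEGF array 1, which were picked for standing apart, shrank the spread more than the differences. Col4a1 was then higher by 1.87 ± 0.23 in MCAO (adjusted p = 0.00412) and 1.5 ± 0.23 in VEGF (adjusted p = 0.0101), and Col4a2 by 1.60 ± 0.28 (adjusted p = 0.0120) and 1.26 ± 0.28 (adjusted p = 0.0270).

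The other 4 type IV chains, Col4a3 to Col4a6, which form networks in kidney, lung and smooth muscle basement membranes among others, overlapped sham in both comparisons. Their differences ran from -0.21 to 0.33 in MCAO and from -0.57 to 0.29 in VEGF. The second kept probes of Col4a4 and Col4a6 differed from the first in sign in MCAO against sham, at -0.11 against 0.33 and at 0.14 against -0.10. Col4a3 was well above background on 2 of 3 MCAO arrays and 1 of 3 VEGF arrays.

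Of the multiplexins, collagens of vessel basement membranes whose ends are cut off as fragments such as endostatin, Col18a1 was higher on the ischaemic arrays and Col15a1 was not. Col18a1 was at -0.67, -0.69 and -1.18 in sham, at 2.82, 0.61 and 0.63 in MCAO and at 3.02, 0.70 and -0.10 in VEGF. The groups did not overlap sham, and array 1 was again far above its group. The difference was 2.20 ± 0.84 in MCAO (adjusted p = 0.187) and 2.05 ± 0.84 in VEGF (adjusted p = 0.193), and its second probe gave 1.90 and 1.71. Without the pair it was 1.47 ± 0.27 (adjusted p = 0.0149) and 1.15 ± 0.27 (adjusted p = 0.0338).

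Col15a1 was at -5.09, -5.25 and -4.65 in sham, at -4.10, -4.30 and -5.28 in MCAO and at -3.92, -5.44 and -5.64 in VEGF. All 3 groups overlapped. The difference from sham was 0.44 ± 0.49 in MCAO and -0.00 ± 0.49 in VEGF.

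The summed level of the 8 endothelial markers, all well above background on all 9 arrays, in multiples of each array's 75th percentile, was 28.6 to 31.4 in sham. It reached 163, 69.7 and 61.5 in MCAO and 228, 49.1 and 64.4 in VEGF, with the highest value on array 1 of each ischaemic group, as for Col4a1, Col4a2 and Col18a1. The order of the other arrays did not match throughout: within sham the sum was lowest on array 1, where Col4a1 was highest, and VEGF array 3 had a higher sum but a lower Col18a1 level than VEGF array 2. Of the 8 markers none rose and 1, the transporter Slco1a4, fell in each comparison with sham. In MCAO it did not pass without any 1 sham array (adjusted p up to 0.0890). In each comparison 5 markers had differences above 0 and 3, Slco1a4, Tek and Abcb1a, below. The sum is weighted to the brightest markers, Ly6c1 and Cldn5, with means of 5.92 and 4.10 in MCAO. With the pair left out 3 of the 8 were called higher in each comparison, and 1 lower in MCAO and 2 in VEGF. Of all genes 9.79% and 8.76% were then called higher, and 13.0% and 11.3% lower. The summed level of the 10 mural cell markers was 28.8 to 34.6 in sham, 23.8 to 25.1 in MCAO and 25.5 to 48.2 in VEGF. This sum is weighted to Vtn, the brightest of them in sham, with means of 4.02 in sham and 2.74 in MCAO. None of the 10 was called, and in each comparison with sham 5 had differences above 0 and 5 below. The part of endothelial and mural cells in the collagen values was not tested, and in such bulk RNA more cells of a type cannot be told from more RNA per cell.

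**Figure D3:**
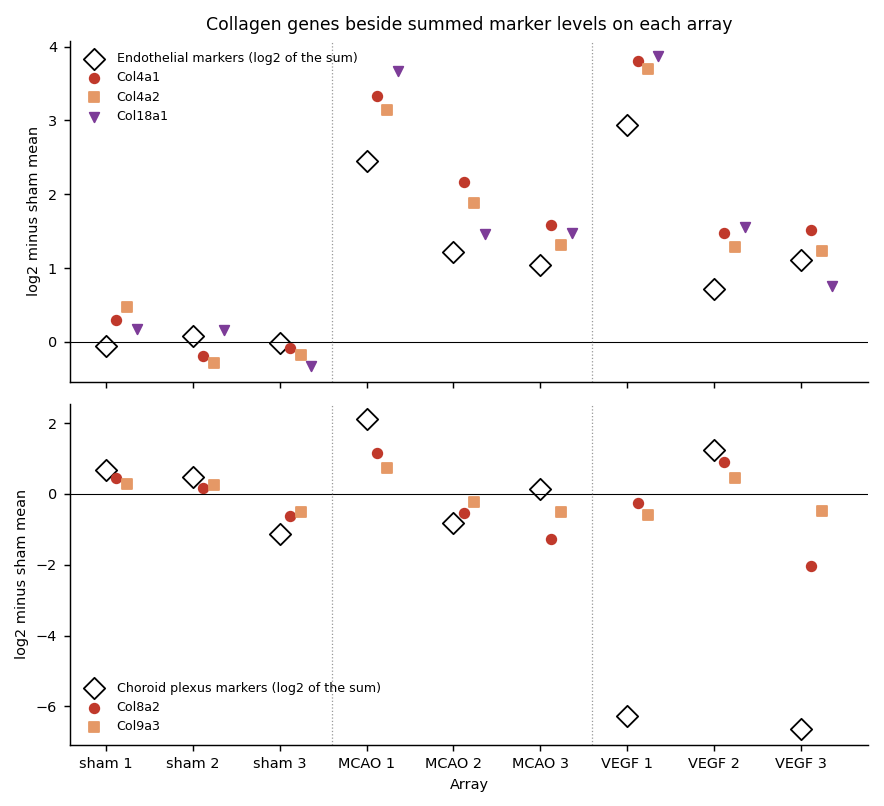
Per array, the log2 level minus the sham mean of Col4a1, Col4a2 and Col18a1 beside the log2 of the summed endothelial markers (upper panel), and of Col8a2 and Col9a3 beside the summed choroid plexus markers (lower panel). Vertical scales differ between panels. In the upper panel MCAO array 1 and VEGF array 1 are highest for the 3 genes and for the markers, and in the lower panel the markers are far below sham on VEGF arrays 1 and 3.

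The sequence upstream of 4 of these genes is shown as examples. Col5a3 passed both tests against sham, and Col4a1, Col18a1 and Col3a1 were higher than sham on all 6 ischaemic arrays. Col2a1, Col4a2, Col8a1 and Col16a1 were also higher on all 6 and are not shown. The bases come from RefSeq's promoter windows on GRCm38.p6, cut to the part upstream of the annotated gene and written 5′ to 3′ on the gene's strand. They are chr9:20815118-20815317 for Col5a3, chr8:11312890-11313076 for Col4a1 and chr10:77166531-77166780 for Col18a1, all on the minus strand, and chr1:45311288-45311537 on the plus strand for Col3a1. Capitals mark the letters GGGCGG (GC box), CCAAT and TATAAA on either strand.
Col5a3: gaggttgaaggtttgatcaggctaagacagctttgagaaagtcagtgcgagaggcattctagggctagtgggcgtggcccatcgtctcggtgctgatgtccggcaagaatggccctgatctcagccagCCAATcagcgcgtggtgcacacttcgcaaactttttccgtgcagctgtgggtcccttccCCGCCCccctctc
Col4a1: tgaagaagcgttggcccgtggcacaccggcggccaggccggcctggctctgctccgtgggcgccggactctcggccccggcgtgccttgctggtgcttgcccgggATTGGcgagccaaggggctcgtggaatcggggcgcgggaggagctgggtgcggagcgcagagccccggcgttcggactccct
Col18a1: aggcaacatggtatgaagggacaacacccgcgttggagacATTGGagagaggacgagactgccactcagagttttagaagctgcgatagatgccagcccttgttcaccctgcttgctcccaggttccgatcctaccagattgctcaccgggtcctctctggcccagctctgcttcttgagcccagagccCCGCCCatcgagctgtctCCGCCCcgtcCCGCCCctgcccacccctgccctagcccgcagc
Col3a1: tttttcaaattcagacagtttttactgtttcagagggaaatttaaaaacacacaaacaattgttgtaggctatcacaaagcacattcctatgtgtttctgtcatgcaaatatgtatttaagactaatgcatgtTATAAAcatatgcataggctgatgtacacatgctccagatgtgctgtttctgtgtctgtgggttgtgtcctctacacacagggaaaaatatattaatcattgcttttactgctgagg
The Col5a3 stretch holds 1 GC box and 1 CCAAT, the Col4a1 stretch 1 CCAAT, the Col18a1 stretch 3 GC boxes and 1 CCAAT, and the Col3a1 stretch 1 TATAAA. G and C make up 58.0% of the Col5a3 bases, 73.8% of Col4a1, 62.0% of Col18a1 and 35.2% of Col3a1.

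The Col4a1 stretch lies inside the neighbouring Col4a2 gene, since Col4a1 and Col4a2 stand head to head on opposite strands and their annotated starts overlap. Over whole 300-base windows, 34 of the 42 collagen genes matched, with 37 windows. GGGCGG was in 23 of these 37 windows (62.2%) and in 35.7% of all 32851 windows, CCAAT in 13 (35.1%) and 37.4%, and TATAAA in 5 (13.5%) and 13.6%. Both strands were searched, and CCAAT and GGGCGG matches can share bases. The matches are descriptions of letters only.

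Of the 8 FACITs, Col20a1 rose in MCAO against sham. It was at -2.31, -2.23 and -1.97 in sham, at -0.32, -0.40 and -0.72 in MCAO and at -2.21, -0.88 and -1.12 in VEGF. The MCAO arrays were above all other arrays, while VEGF array 1 lay among the sham arrays. Col20a1 rose by 1.69 ± 0.34 in MCAO (3.23-fold, adjusted p = 0.0376), and its second probe gave 1.22. In VEGF the difference was 0.77 ± 0.34 (adjusted p = 0.214), and with the pair of arrays left out it was 1.17 ± 0.17 (adjusted p = 0.00953). The call in MCAO was lost without any 1 sham array (adjusted p = 0.116 to 0.170) or any 1 MCAO array (0.0665 to 0.107), while the difference stayed between 1.61 and 1.81.

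Col16a1, a FACIT of several connective tissues, had higher values on all ischaemic arrays, with a difference of 0.83 ± 0.28 in both comparisons (adjusted p = 0.153 and 0.145). It is named here, like Col9a2, Col8a1, Col8a2, Col25a1, Col26a1 and Col14a1 below, after its values were seen. All 3 of its probes were above sham, at 0.37, 0.65 and 0.83 in MCAO.

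Lower values were seen for Col9a2, Col19a1 and Col22a1 among the FACITs. Col9a2, a chain of type IX collagen of cartilage, was at 1.19, 0.82 and 0.68 in sham, at -0.62, 0.17 and -0.13 in MCAO and at 0.15, 0.26 and 0.30 in VEGF. Every ischaemic array was below every sham array. The difference was -1.09 ± 0.24 in MCAO (adjusted p = 0.0554) and -0.66 ± 0.24 in VEGF (adjusted p = 0.165), while the other type IX chains, Col9a1 and Col9a3, differed by -0.21 ± 0.19 and -0.01 ± 0.42 in MCAO.

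Col22a1, a collagen of tissue junctions, was at -0.04, -0.57 and -0.16 in sham, at -3.21, -0.80 and -1.22 in MCAO and at -3.54, -1.08 and -1.43 in VEGF. All ischaemic arrays were below sham, and array 1 of each group was far below the rest. The difference was -1.49 ± 0.76 in MCAO (adjusted p = 0.291) and -1.76 ± 0.76 in VEGF (adjusted p = 0.209), and without the pair -0.75 ± 0.23 (adjusted p = 0.0588) and -1.0 ± 0.23 (adjusted p = 0.0301).

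Col19a1, a FACIT made by some interneurons, was at -4.39, -4.34 and -3.73 in sham, at -8.37, -4.59 and -4.49 in MCAO and at -6.34, -5.75 and -4.99 in VEGF. The groups did not overlap sham, but the MCAO value rested on array 1, and the gene was well above background on 2 of 3 arrays in each ischaemic group. The difference was -1.66 ± 0.94 in MCAO and -0.39 ± 0.29 there without the pair. In VEGF it was -1.54 ± 0.94 (adjusted p = 0.330), and -1.21 ± 0.29 without the pair (adjusted p = 0.0338). With normexp the differences were -0.42 and -0.49.

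The 3 tested transmembrane collagens all had differences below 0 in both comparisons, and none passed the test. Col23a1, a transmembrane collagen that is shed from the cell surface, was at 0.16, -0.74 and -0.86 in sham, at -2.20, -1.69 and -2.20 in MCAO and at -1.58, -1.24 and -2.11 in VEGF. No ischaemic array reached the lowest sham array. The difference was -1.55 ± 0.34 in MCAO (adjusted p = 0.0528; 0.0435 without the pair) and -1.17 ± 0.34 in VEGF (adjusted p = 0.112). Its 3 probes ran from -1.75 to -1.30 in MCAO and from -1.32 to -0.92 in VEGF.

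Col25a1 is a neuronal transmembrane collagen whose shed part is found in amyloid plaques. Its difference was -1.44 ± 0.64 in MCAO (adjusted p = 0.241) and -1.07 ± 0.64 in VEGF (adjusted p = 0.321), without overlap with sham on its brightest probe. VEGF arrays 1 and 2, at -1.39 and -1.20, were close to the sham values of -1.07 to -1.14, while VEGF array 3 was at -3.94. Its other kept probes gave -0.66 and -1.21 in MCAO and -0.72 and -0.88 in VEGF. Both overlapped sham in VEGF, and the first also in MCAO. Col13a1, a collagen of the neuromuscular junction, was not well above background on any VEGF array. The lower bound of its fold below sham there was 1.38, but the gene did not pass the test (adjusted p = 0.231). VEGF overlapped sham, with VEGF array 1 at -6.13 and sham array 3 at -6.72, and with normexp the difference was -0.08.

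The summed level of the 8 neuron markers, all well above background on all arrays, was 461 to 473 in sham, 109, 295 and 350 in MCAO and 113, 295 and 378 in VEGF. None of the 8 passed the test, and all 8 differences were below 0 in both comparisons. With the pair left out 5 were called lower in MCAO and 3 in VEGF, beside 13.0% and 11.3% of all genes. The part of these levels in the lower collagen values was not tested.

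Among the beaded-filament type VI chains none was called. Col6a1 and Col6a2, the main chains of type VI collagen, differed from sham by 0.03 ± 0.24 and 0.06 ± 0.32 in MCAO and by 0.23 ± 0.24 and 0.25 ± 0.32 in VEGF. Col6a4 was at -3.97, -4.40 and -3.30 in sham, at -6.36, -5.71 and -4.04 in MCAO and at -7.43, -4.66 and -4.43 in VEGF. VEGF did not overlap sham, with array 1 far lower, and the difference was -1.62 ± 0.86 in VEGF (adjusted p = 0.274) and -1.48 ± 0.86 in MCAO. The VEGF value was -0.66 without VEGF array 1 and -0.46 with normexp, another background correction. Its second probe gave -0.93 and -0.18. Col6a5 was well above background on 1 of 3 arrays in each ischaemic group.

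Col7a1, which builds the anchoring fibrils under epithelia, was at -0.90, -0.76 and -0.69 in sham, at 3.11, 0.34 and 0.20 in MCAO and at 1.93, 0.07 and -1.09 in VEGF. MCAO was clear of sham and VEGF was not, since VEGF array 3 was the lowest of all 9. The difference was 2.00 ± 0.90 in MCAO (adjusted p = 0.245) and 1.09 ± 0.90 in VEGF (adjusted p = 0.458), and without the pair 1.05 ± 0.32 and 0.27 ± 0.32.

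Of the short-chain collagens, Col8a1, made by vascular smooth muscle and endothelium, was above sham on all ischaemic arrays, by 1.18 ± 0.42 in MCAO (adjusted p = 0.168) and 0.94 ± 0.42 in VEGF (adjusted p = 0.218). Col10a1, the collagen of hypertrophic cartilage, was at -3.24, -3.77 and -4.13 in sham, at -5.44, -5.81 and -4.86 in MCAO and at -4.71, -3.72 and -5.62 in VEGF. MCAO lay below sham and VEGF overlapped it. The difference was -1.66 ± 0.48 in MCAO (adjusted p = 0.110) and -0.97 ± 0.48 in VEGF (adjusted p = 0.254), and with normexp the MCAO value was -0.83.

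Col8a2 varied widely within each group, at -0.91, -1.17 and -1.96 in sham, -0.20, -1.89 and -2.63 in MCAO and -1.60, -0.44 and -3.39 in VEGF. The summed level of the 8 choroid plexus markers was 108, 94.6 and 30.9 in sham, 295, 38.3 and 75.1 in MCAO and 0.885, 161 and 0.682 in VEGF, in the same order of arrays. The sum is weighted to the brightest marker, Ttr, at 6.63 on sham array 1, 8.08 on MCAO array 1 and 7.18 on VEGF array 2. By the median of the 8 markers minus the sham mean, sham arrays 1 and 2 were level, both at 0.57. In each group the array with the highest marker sum also had the highest Col8a2. The order of the other arrays did not always match. MCAO array 3 had a higher sum than MCAO array 2 but a lower Col8a2. VEGF array 1, with a sum of 0.885, had a higher Col8a2 than sham array 3, with 30.9. Col8a2 did not differ beyond its spread in either comparison (-0.23 ± 0.81 and -0.46 ± 0.81). The part of choroid plexus RNA in the Col8a2 values was not tested. Col26a1, a small collagen first found in testis and ovary, was below sham on all ischaemic arrays, by -1.12 ± 0.33 in MCAO (adjusted p = 0.114) and -0.75 ± 0.33 in VEGF (adjusted p = 0.217).

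**Figure D4:**
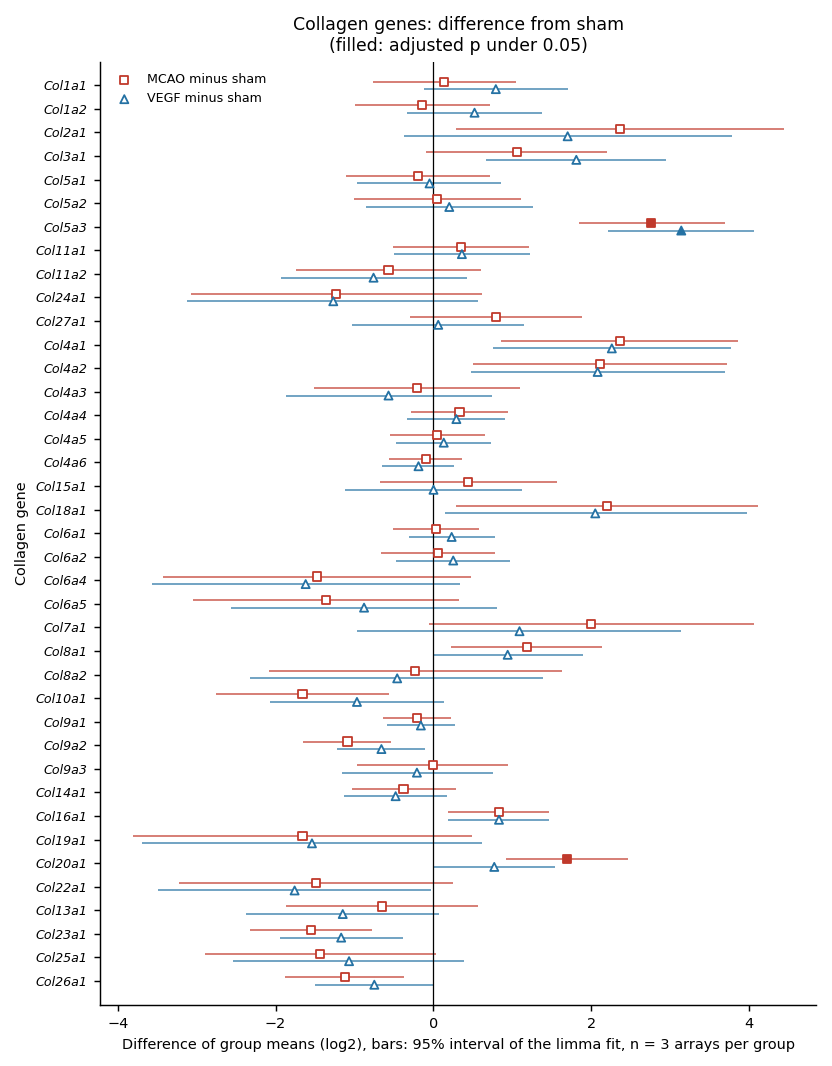
Difference of the group means from sham on a log2 scale for the 39 tested collagen genes, in MCAO (squares) and VEGF (triangles), with the 95% interval of the limma fit (n = 3 arrays per group) and filled symbols where the adjusted p is under 0.05. Only Col5a3 in both comparisons and Col20a1 in MCAO are filled, and most intervals include 0.

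How many collagen genes were called depended on the pair of arrays that stood apart. Without it, 7 of 39 (17.9%) were higher in MCAO than in sham, namely Col2a1, Col3a1, Col5a3, Col4a1, Col4a2, Col18a1 and Col20a1, and 4 (10.3%) were lower, namely Col9a2, Col14a1, Col23a1 and Col26a1. Over all genes 9.79% were then called higher and 13.0% lower. In VEGF against sham 6 (15.4%) were higher, the same genes but for Col2a1, and 5 (12.8%) were lower, namely Col11a2, Col14a1, Col19a1, Col22a1 and Col13a1, beside 8.76% and 11.3% of all genes. Col13a1 and Col19a1 were kept through their sham arrays only. Col13a1 was well above background on no VEGF array and Col19a1 on 2 of 3, so these 2 lower calls rest on values near background. With normexp, over all 9 arrays, their differences in VEGF were -0.08 and -0.49. Without VEGF array 1 alone, 4 collagen genes (10.3%) were higher and 2 (5.13%) lower in MCAO against sham, beside 6.07% and 2.31% of all genes. Without MCAO array 1 alone, 2 (5.13%) were higher and 1 (2.56%) lower in VEGF against sham, beside 5.30% and 5.31%. With any 1 sham array left out, none was called in MCAO against sham.

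VEGF against MCAO asked whether the injected VEGF-A changed collagen expression in the ischaemic brain. No collagen gene passed the test in limma, and 1 (2.56%), Col20a1, had an unadjusted p under 0.05, as did 2.78% of all genes. Over all genes 0% were called higher and 0.00649% lower, and the median of the 39 differences was -0.03, beside -0.02 over all genes. VEGF lay wholly above MCAO for 0 members and for 2.33% of all genes, and wholly below it for 1 member, Col20a1 (2.56%), and for 3.48% of all genes.

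Col20a1 was lower in VEGF by -0.92 ± 0.34 (95% interval -1.70 to -0.15, unadjusted p = 0.0241, adjusted p = 1.00). Its second probe gave -0.79, and the difference was -0.44 ± 0.19 without the pair of arrays and -0.52 without VEGF array 1 alone. The other members with the lowest differences were Col7a1 at -0.91 (interval -2.97 to 1.15) and Col27a1 at -0.73 (-1.82 to 0.36). The highest were Col3a1 at 0.75 (-0.39 to 1.89), Col10a1 at 0.69 (-0.41 to 1.79) and Col1a2 at 0.66 (-0.20 to 1.52). These values moved with single arrays. Without VEGF array 1 Col3a1 was at 0.20 and Col1a2 at 0.26. Over all left-out arrays Col7a1 ran from -1.72 without VEGF array 1 to 0.04 without MCAO array 1. Col27a1 was at -0.25 without MCAO array 1, -1.12 without VEGF array 1 or MCAO array 3 and -0.41 without VEGF array 3, and at -0.43 with normexp. Col10a1 ran from 0.21 without VEGF array 2 to 1.16 without VEGF array 3, and was at 0.45 with normexp.

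Without the pair of arrays Col3a1 was at -0.16 ± 0.24 and Col1a2 at 0.03 ± 0.22, and no collagen gene was called, where 0.00649% of all genes were higher and 0.00324% lower. For Col5a3 the VEGF minus MCAO difference was 0.37 ± 0.41, with an interval from -0.55 to 1.30. For Col4a1 it was -0.09 (-1.60 to 1.41), for Col4a2 -0.03 (-1.64 to 1.58) and for Col18a1 -0.15 (-2.06 to 1.77). It is not known that the replicate numbers pair VEGF with MCAO arrays. With the number as a block the intervals were -1.05 to 0.86 for Col4a1 and -0.93 to 0.86 for Col4a2. They were -1.39 to 1.1 for Col18a1 and -0.35 to 1.1 for Col5a3. Without the pair of arrays the difference was -0.38 ± 0.25 for Col4a1, -0.33 ± 0.30 for Col4a2 and -0.32 ± 0.30 for Col18a1. Col20a1 kept an unadjusted p under 0.05 with the block (0.0284, interval -1.72 to -0.13), and no collagen gene was called.

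**Figure D5:**
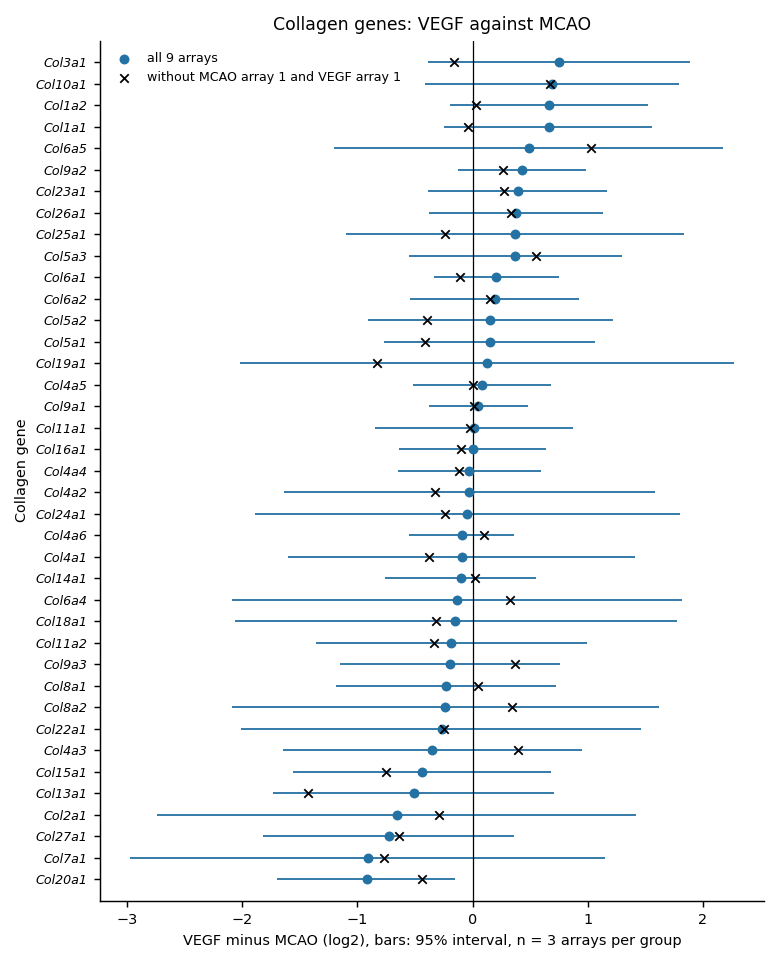
VEGF minus MCAO difference on a log2 scale for the 39 tested collagen genes, ordered by size, with the 95% interval of the limma fit (points and bars, n = 3 arrays per group) and the same difference without MCAO array 1 and VEGF array 1 (crosses). The interval includes 0 for every gene but Col20a1, and the crosses of Col3a1, Col1a2 and Col1a1 lie near 0.

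The enzymes and chaperones that fold, hydroxylate, trim and crosslink collagen were described as a list of 31 genes, of which 30 were tested. In each comparison with sham 4 of the 30 rose and none fell, where 2.28% (MCAO) and 2.07% (VEGF) of all genes were called higher. The median difference was 0.53 in MCAO and 0.70 in VEGF, beside -0.04 and -0.12 over all genes. Serpinh1 (Hsp47), the collagen chaperone of the endoplasmic reticulum, was at -0.05, 0.23 and 0.16 in sham, at 3.02, 2.48 and 1.98 in MCAO and at 3.76, 1.91 and 1.87 in VEGF. All ischaemic arrays were above all sham arrays. It rose by 2.38 ± 0.50 in MCAO (adjusted p = 0.0465) and 2.40 ± 0.50 in VEGF (adjusted p = 0.0491).

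The other 3 that rose were lysyl oxidases, which crosslink collagen and elastin. Lox was at -6.54, -6.58 and -6.79 in sham, at -3.39, -3.06 and -3.08 in MCAO and at -1.14, -3.94 and -2.87 in VEGF. It rose 11.0-fold in MCAO (adjusted p = 0.0206) and 15.9-fold in VEGF (adjusted p = 0.0124). Loxl1 rose by 1.39 ± 0.29 (adjusted p = 0.0478) and 1.53 ± 0.29 (adjusted p = 0.0359). Loxl4 had no sham array well above background and was at least 4.83-fold higher in MCAO (adjusted p = 0.00764) and at least 4.21-fold higher in VEGF (adjusted p = 0.0106). With 1 array left out, Loxl4 in MCAO passed in all 9 fits and in VEGF in 7 of 9, failing without sham array 2 or sham array 3 (adjusted p up to 0.0582). Lox passed in 4 and 6 of 9 fits, Loxl1 in 3 and 3, and Serpinh1 in 2 and 2, and each of these lost its call without any 1 sham array (adjusted p up to 0.207). Without the pair of arrays all 4 passed in both comparisons. Of the 30 genes 10 were then called higher in MCAO and 7 in VEGF, with none lower. The shares of all genes were 9.79% and 8.76% higher, and 13.0% and 11.3% lower.

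Of 7 tested collagen receptors none was called, and the smallest p in MCAO against sham was that of the collagen-binding kinase Ddr1 (1.46 ± 0.39, adjusted p = 0.0911). None of the 17 basement membrane partners was called either. Hspg2 (perlecan), a partner of type IV collagen, was at -0.82, -0.31 and -0.35 in sham, at 2.92, 1.37 and 1.24 in MCAO and at 3.25, 1.1 and 0.59 in VEGF, with array 1 highest in each ischaemic group, and differed by 2.34 ± 0.70 (adjusted p = 0.117) and 2.14 ± 0.70 (adjusted p = 0.136). Of 7 collagen-binding proteoglycans, Fmod (fibromodulin), which binds fibrillar collagen, fell by 2.47 on the log2 scale in MCAO (adjusted p = 0.00893) and by 1.83 in VEGF (adjusted p = 0.0304); with 1 array left out it passed in 9 of 9 fits in MCAO and in 2 of 9 in VEGF (adjusted p up to 0.122). With the pair left out 3 receptors were called higher in MCAO and 1 in VEGF, with none lower. Of all genes 9.79% and 8.76% were then called higher, and 13.0% and 11.3% lower. Of the basement membrane partners 6 were then higher and 2 lower in each comparison, and of the proteoglycans 2 were higher and 1 lower in MCAO and 1 higher and 1 lower in VEGF. In VEGF against MCAO no gene of these lists was called, with the pair or without it.

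Fmod is also one of the 10 markers of meningeal and perivascular fibroblasts, the cells that make most fibrillar collagen in the brain. Their summed level was 28.1 to 42.4 in sham, 29.0 to 53.7 in MCAO and 31.0 to 131 in VEGF, with the highest value on VEGF array 1, where Col1a1, Col1a2 and Col3a1 were also highest. On that array the sum is weighted to the brightest markers, Dcn at 6.31 and Aldh1a2 at 4.99. The median over the 10 markers of the level minus the sham mean was -0.20 there. The median difference of the 10 markers was -1.30 in MCAO and -0.78 in VEGF, with 1 of 10, Fmod, called lower in each. Of 6 tested markers of monocytes and macrophages 5 rose in each comparison with sham, beside 2.28% and 2.07% of all genes. Msr1 was well above background on no sham array and Ccr2 on 1. The median difference of the 6 was 4.16 in MCAO and 4.40 in VEGF. Their summed level was 48.8 to 62.3 in sham, 72.6 to 89.4 in MCAO and 61.0 to 102 in VEGF. That sum is weighted to the brightest marker, Itgam, which differed by 0.00 ± 0.18 in MCAO and -0.14 ± 0.18 in VEGF. Of the 5, Adgre1 and Cd14 lost their calls without any 1 sham array (adjusted p up to 0.190). Of 6 astrocyte markers, only Gfap was called, in VEGF (2.06 ± 0.40, adjusted p = 0.0366), and it passed in 2 of 9 fits with 1 array left out. In MCAO Gfap did not overlap sham either and just missed the threshold (1.84 ± 0.40, adjusted p = 0.0507). Its VEGF minus MCAO difference was 0.22 ± 0.40. None of 5 oligodendrocyte markers was called in either comparison with sham. The part of these cell types in the collagen values was not tested.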

How the data were processed

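Expression was measured on 1-colour Agilent arrays, 1 mouse each. The deposited scanner files hold intensity values; they were made with Feature Extraction 10.7.1.1, which per the file headers subtracted background, applied a spatial detrending factor, deposited as a ratio per spot (not applied on MCAO array 1), and gave the processed intensity. The authors' deposited value table was read as log2 values from its match to these intensities (correlation 0.998 or above); its normalization is not given in the sources used here. No coordinates of array probes were used.

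Here, spots of a probe were averaged, log2 taken and each array's 75th percentile subtracted. A probe was kept if all 3 arrays of some group had it well above background (43921 of 55681 non-control probes). The brightest probe stood for a gene. Probes were named through RefSeq accessions (26582 probes; GRCm38.p6 table). The 3 comparisons came from 1 limma fit of all 9 arrays (limma 3.58.1, statmod 1.5.0, R 4.3.3), with 8.48 degrees of freedom, 2.48 of them from the prior, with two-sided tests and Benjamini-Hochberg adjustment over 30837 genes (17589 with a symbol) at 0.05; ± is the standard error. Where the dimmer group had no array well above background, a lower bound of the fold is given, with each dim array set to its own signal or, if higher, to the lowest signal that was well above background there. The fit was tested on simulated data.

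The labels state 3 separate animals per group. Arrays with the same number deviated together in MCAO and VEGF (correlations of 0.59, 0.22 and 0.56 across genes). For sham with MCAO or VEGF the correlations ran from -0.11 to 0.15. Array 1 stood apart in both MCAO and VEGF, so the correlations cannot tell whether the numbers pair these groups. The limma fit has no block, and a block on the number was an alternative. Members and lists were chosen with earlier results of these data known. Collagen genes are named with their array values if called, if among the 3 largest differences either way in a comparison, or if Col1a1, Col1a2, Col3a1, Col4a1, Col4a2, Col15a1 or Col18a1; of other lists, called genes and up to 4 of smallest p. Alternatives were other normalizations, filters, probe rules and fits, and leaving out arrays.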

Additional observations from a re-analysis of the deposited data

How the results depend on the processing

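The 23 differences tried here were those called or among the 3 largest either way in a comparison. Col1a1, Col1a2, Col3a1, Col4a1, Col4a2, Col15a1 and Col18a1 entered otherwise only where their unadjusted limma p was under 0.05. Under every alternative (460 values), 407 kept their direction and side of the threshold, 39 passed only under the alternative, 12 no longer passed and 2 changed sign. Both sign changes were in VEGF against MCAO: Col3a1 to -0.16 without both arrays that stood apart and Col7a1 to 0.04 without MCAO array 1 (-1.72 to 0.04 over all left-out arrays). The 12 were Col5a3 and Col20a1 with 1 array left out, and Col20a1 in MCAO with no filter on dim probes (adjusted p = 0.0514). Outside the 23, Col1a2 in MCAO against sham went from -0.14 to 0.09 without the pair. With 1 array left out Col1a1 there ran from -0.09 to 0.59, and Col15a1 in VEGF against sham from -0.54 to 0.32. Quantile normalization, the authors' table, normexp and the recomputed signal left the collagen counts within 1.5 times.

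Collagen genes called in MCAO against sham (2) became 1 with no filter, 6 with only the 2 groups compared, 19 with array weights, 5 with the replicate block, 7 with age as a covariate and 11 without the pair of arrays; leaving out 1 array gave 0 to 6. In VEGF against sham (1) they became 13 with array weights, 3 with the replicate block and 11 without the pair, and 0 to 3 with 1 array left out. In VEGF against MCAO the count was 0 under every alternative, the replicate block and each left-out array (0 to 0) included.

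Over all genes, MCAO against sham (868 called) became 556 with normexp, 1788 with only the 2 groups, 12387 with array weights, 1577 with age, 7030 without the pair and 190 to 2583 with 1 array left out. VEGF against sham (746) became 418 with normexp, 7095 with array weights, 6176 without the pair and 156 to 3271. VEGF against MCAO (2) became 4 with quantile normalization, 0 with normexp or the recomputed signal, 1 with only the 2 groups, 27 with array weights and 1 to 3. Array weights used limma's gene-by-gene method, because its default did not converge; they gave MCAO array 1 a weight of 0.114 and VEGF array 1 one of 0.143. The causes were not tested. The replicate numbers do not pair sham with the other groups, so the block has no basis for those comparisons. For VEGF against MCAO a pairing is not known either. With 3 arrays per group, a slide for sham and another for ischaemia, and dim genes near background, small differences were not detectable.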
